A study of Mus musculus with 18 samples.

Results

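The CXC chemokine system of the mouse colon was described through 10 genes: the ligand genes Cxcl1, Cxcl5, Cxcl9, Cxcl10, Cxcl12, Cxcl13, Cxcl14, Cxcl16 and Pf4, and the receptor gene Cxcr4. They were chosen by name, with earlier results of these data known, and all 10 had a row among the 27131 rows of the expression table. Polyadenylated RNA had been sequenced from colon tissue of untreated C57BL/6 mice, in 9 libraries labelled Hif2a +/+ (WT) and 9 labelled Hif2a LFL (HIF2), the latter from mice described as overexpressing HIF2 in the colon. The design text writes the altered allele as LSL, and neither the promoter or cell type that drives it nor the age or sex of the mice could be read from the labels. Whether each library came from its own mouse is also not stated, and the p-values below therefore refer to the spread among libraries, which may be technical. Libraries are named by group and by replicate number, 0 to 8.

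CXC chemokines are small secreted proteins that guide leukocytes by binding receptors coupled to G proteins, and they take their name from a pair of conserved cysteines separated by a single residue. Ligands that carry a glutamate-leucine-arginine motif before those cysteines, such as the products of Cxcl1, Cxcl2, Cxcl3 and Cxcl5, act through Cxcr2 and draw neutrophils. Cxcl9 and Cxcl10 are induced by interferons and draw Cxcr3-bearing T and NK cells, Cxcl12 is a homeostatic product of stromal cells that signals through Cxcr4, and Cxcl13 guides B cells through Cxcr5. The series title places neutrophil recruitment at the centre of the study, which makes the neutrophil-directed ligands the first question and the remaining family members its setting.

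Values were FPKM, as deposited, a measure that scales sequenced fragments to transcript length and to the size of the library. The columns summed to between 686539 and 937505 FPKM and their upper quartiles lay between 8.86 and 9.14 FPKM. Absolute read depth is not given, and the most common ratio of low values to those in WT replicate 0 lay between 1.04 and 1.38. Of 8 epithelial genes 4 were lower in HIF2, Krt20 by 0.67, Cdx2 by 0.60, Vil1 by 0.40 and Cdh1 by 0.38 (log2), and 0 were higher. All libraries held epithelial markers, with Epcam between 631 and 1140 FPKM, Krt8 between 2500 and 4510 FPKM and Krt18 between 202 and 583 FPKM. Epcam, Krt8 and Krt18 were not among the 4 that were lower. Epas1, which encodes HIF-2α, was 18.8 ± 3.09 FPKM in WT and 22.7 ± 6.36 FPKM in HIF2 (SD, n = 9 each), a difference that did not pass the test (limma adjusted p = 0.246). Libraries within HIF2 differed from each other. Summed FPKM of 10 smooth muscle genes lay between 1304 and 3229 in HIF2 replicates 0 to 5 and between 65.0 and 171 in replicates 6 to 8, against 31.3 to 1063 in WT, where replicate 3 was highest. HIF2 replicate 0 stood apart by neutrophil genes, and the tests of the 10 genes are given with and without it. Ddx3y, a Y-linked gene, was above 1 FPKM in 5 WT and 5 HIF2 libraries.

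Upstream sequences are shown for the ligands whose pattern the results turn on, read from RefSeq's GRCm38.p6 table, which held 8 of the 10 genes. Cxcl5 and Cxcl16 were not among them. Each is the 250 bases before the annotated start, 5′ to 3′ on the gene's own strand. Capitals mark matches, on either strand, to a form of the kappaB site bound by NF-kappaB (GGG, any 2 bases, TT, any base, CC) or to a form of the element bound by interferon-activated factors (GAAA, any 2 bases, GAAA).
Cxcl1, chr5:90890995-90891244, plus strand: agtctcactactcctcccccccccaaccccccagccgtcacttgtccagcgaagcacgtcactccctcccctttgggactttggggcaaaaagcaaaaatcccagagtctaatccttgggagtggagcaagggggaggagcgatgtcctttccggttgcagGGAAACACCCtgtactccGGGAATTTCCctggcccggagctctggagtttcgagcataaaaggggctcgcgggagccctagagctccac
Cxcl2, chr5:90903649-90903898, plus strand: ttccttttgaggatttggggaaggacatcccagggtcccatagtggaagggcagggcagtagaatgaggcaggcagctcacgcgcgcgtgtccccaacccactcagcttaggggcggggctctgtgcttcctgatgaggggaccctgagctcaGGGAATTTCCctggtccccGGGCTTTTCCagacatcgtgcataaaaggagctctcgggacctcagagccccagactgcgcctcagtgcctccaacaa
Cxcl3, chr5:90785851-90786100, plus strand: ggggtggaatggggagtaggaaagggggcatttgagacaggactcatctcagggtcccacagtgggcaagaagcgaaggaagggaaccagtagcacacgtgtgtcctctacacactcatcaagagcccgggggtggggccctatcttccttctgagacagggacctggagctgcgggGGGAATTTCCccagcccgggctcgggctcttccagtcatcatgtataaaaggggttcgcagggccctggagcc
Cxcl10, chr5:92348890-92349139, minus strand: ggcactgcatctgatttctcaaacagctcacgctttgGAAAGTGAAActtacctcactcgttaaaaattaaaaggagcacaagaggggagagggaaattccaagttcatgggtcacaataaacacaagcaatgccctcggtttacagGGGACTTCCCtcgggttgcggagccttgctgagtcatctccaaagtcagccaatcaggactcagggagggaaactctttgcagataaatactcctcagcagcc
Pf4, chr5:90772185-90772434, plus strand: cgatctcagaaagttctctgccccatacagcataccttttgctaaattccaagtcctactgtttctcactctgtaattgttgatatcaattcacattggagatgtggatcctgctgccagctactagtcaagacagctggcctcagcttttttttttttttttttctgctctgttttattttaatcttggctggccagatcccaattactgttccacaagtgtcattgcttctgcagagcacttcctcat
The same 10 letters, GGGAATTTCC, began at position -71 from the start of Cxcl1, -97 from that of Cxcl2 and -73 from that of Cxcl3. These ligands were high in HIF2 replicate 0. Cxcl13, Cxcl14, Cxcr4 and Ppbp were also highest in that library, and their windows held 0 kappaB matches. Cxcl5 and Cxcl16, highest there too, had no window. A further kappaB match stood in Cxcl1 and in Cxcl2, 1 in Cxcl10 (GGGACTTCCC) and 1 in Cxcl9 (GGGTTTTCCC). Neither Cxcl10 nor Cxcl9 was high in that library, at 1.14 and 0.785 FPKM. Matches to this motif occurred in 4.11% of the 32851 upstream windows of the table. Cxcl10 also held GAAAGTGAAA and Cxcl14 held GAAACAGAAA, matches to the interferon motif, which occurred in 2.98% of windows. The HIF core letters ACGTG or GCGTG, on either strand, stood in the windows of Cxcl1, Cxcl2, Cxcl3, Cxcl10, Cxcl13, Cxcl14 and Cxcr4, and in 38.6% of all windows. The Pf4 and Cxcl12 windows held none of these motifs. Matches are letters in a window and were not tested as binding sites.

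A mean of at least 1 FPKM over the 18 libraries was required for testing, and 9 of the 10 genes met it. Cxcl9 did not. Cxcl1 and Cxcl5 met it only through HIF2 replicate 0, without which their means were 0.359 and 0.695 FPKM. Only 1.04% of the tested genes depended on that library in the same way. In HIF2, 4 genes rose, namely Pf4, Cxcl12, Cxcl14 and Cxcl13, and 0 fell (limma on log2(FPKM + 1), Benjamini-Hochberg adjusted p under 0.05 over 13976 genes). Over all genes tested 22.1% were called, 11.0% higher and 11.1% lower. At an unadjusted p under 0.05 there were 5 of the 9, Cxcl10 being the fifth, and 4707 of all genes. Over the 7 genes that met the filter without HIF2 replicate 0 the median log2 difference was 0.87, and 0.71 without that library, against -0.02 over all genes. The same 4 genes passed without that library, where 23.3% of genes were called, 11.4% higher and 11.9% lower. Since the 10 genes were chosen with earlier results of these data known, these counts and medians only describe them.

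**Figure D1:**
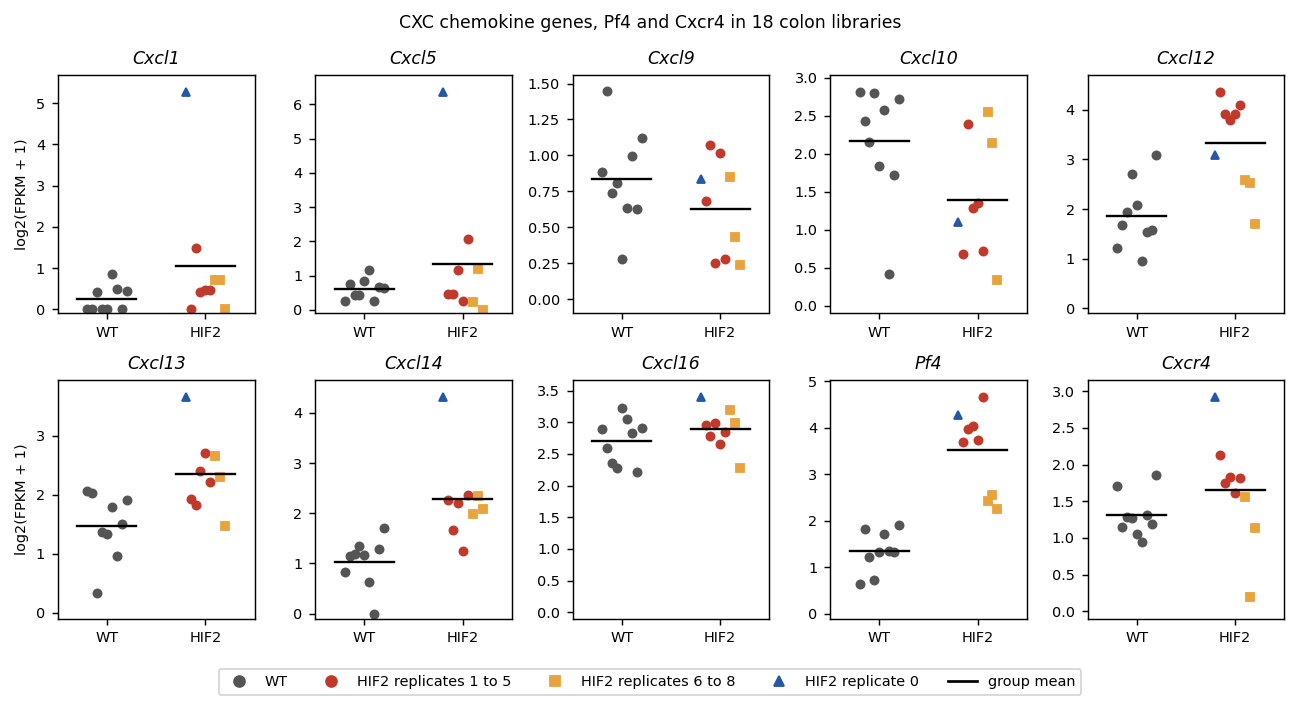
Expression of the 10 genes as log2(FPKM + 1), 1 point per library, with 9 WT and 9 HIF2 libraries and a bar at each group mean. All HIF2 points of Pf4 lie above all WT points, whereas the triangle of HIF2 replicate 0 stands far above every other point for Cxcl1 (37.6 FPKM) and Cxcl5 (81.4 FPKM).

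HIF2 replicate 0 was the highest of the 18 libraries for 6 of the 10 genes, Cxcl1, Cxcl5, Cxcl13, Cxcl14, Cxcl16 and Cxcr4. Over all tested genes it was highest for 15.7%. Cxcl1 and Cxcl5 were tested only through that library, and the 10 genes were chosen with earlier results of these data known. The count of 6 therefore only describes them. It exceeded the WT maximum for 8 of the 10 genes, and the other HIF2 libraries did so for 2 to 5 genes each. The share of all genes above the WT maximum was not taken for each library, so whether these counts are unusual is not known.

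**Figure D2:**
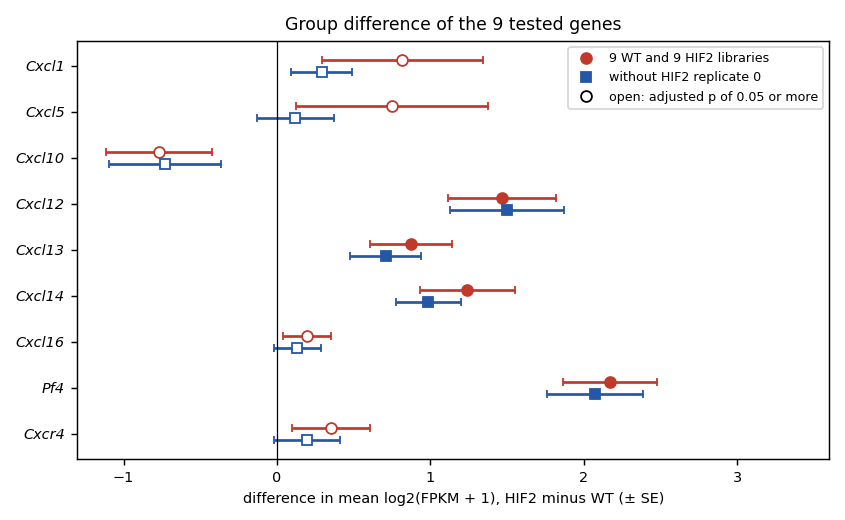
Difference between group means of log2(FPKM + 1), HIF2 minus WT, with its standard error from limma, for the 9 tested genes, from all 18 libraries (circles) and without HIF2 replicate 0 (squares). Filled symbols passed an adjusted p of 0.05: Pf4, Cxcl12, Cxcl14 and Cxcl13 are filled in both fits, and leaving out that library moves Cxcl1 from 0.82 to 0.29 and Cxcl5 from 0.75 to 0.12.

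Pf4 rose in every HIF2 library. It encodes platelet factor 4 (CXCL4), a ligand that binds heparin, is stored in platelet granules and is also made by some tissue macrophages. The lowest, median and highest values were 0.574, 1.53 and 2.76 FPKM in WT and 3.76, 12.3 and 24.3 FPKM in HIF2, so the groups did not overlap. Of all genes tested, 0.758% lay above the WT maximum in all 9 HIF2 libraries and 1.27% below the WT minimum. The means were 1.64 ± 0.773 FPKM in WT and 12.2 ± 6.95 FPKM in HIF2 (SD, n = 9 each), a log2 difference of 2.17 (SE 0.31, limma adjusted p = 0.000125). The exact permutation p was 4.11e-05, the smallest that the splits of 9 against 9 libraries can give. Without HIF2 replicate 0 the difference was 2.07 (SE 0.31, adjusted p = 0.000241).

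Within HIF2, Pf4 lay between 11.99 and 24.3 FPKM in replicates 0 to 5 and between 3.76 and 4.91 FPKM in replicates 6 to 8. The same division was seen in the summed FPKM of macrophage, fibroblast, smooth muscle and endothelial genes. Endothelial sums were 27.6 to 96.0 in replicates 0 to 5 and 16.1 to 20.5 in replicates 6 to 8. Of 11 macrophage genes tested 9 rose and 0 fell, with a median log2 difference of 1.58. Among them the macrophage receptor gene Csf1r rose by 1.61 (adjusted p = 0.000169), the adhesion receptor gene Adgre1 by 1.41 and the lysosomal gene Cd68 by 1.20. The summed FPKM of 12 macrophage genes was 94.8 to 142 in HIF2 replicates 0 to 5, 35.3 to 71.7 in replicates 6 to 8 and 11.0 to 55.7 in WT. Pf4 was 3.76 FPKM in HIF2 replicate 8 at a macrophage sum of 35.3, and 2.76 FPKM in WT replicate 8 at 55.7. It was 18.4 FPKM in HIF2 replicate 0, which had the lowest macrophage sum of replicates 0 to 5. Platelet and megakaryocyte genes were at low levels. Of 12 such genes, Ppbp among them, only Gp1bb, a subunit of the platelet receptor for von Willebrand factor, was abundant enough to be tested, and it fell by 0.89 (adjusted p = 0.00225). The integrin gene Itga2b was at most 0.476 FPKM in WT and 0.883 FPKM in HIF2, Gp1ba at most 0.698 and 0.895 FPKM, and Gp9 at most 0.488 and 0.776 FPKM. Median FPKM in WT and HIF2 was 3.01 and 1.18 for Gp1bb, 0.228 and 0.297 for Itga2b and 0.474 and 0.536 for Gp1ba. Medians of Gp9, Gp5, Ppbp and Nrgn were also higher in HIF2, and that of Gp6 was lower (0.313 and 0). Gp1bb had the highest median of the 12 genes in both groups, so it weighs on their sum. The summed FPKM of the 12 genes was 3.34 to 5.45 in WT and 2.25 to 4.64 in HIF2 without replicate 0, where it was 9.48. The part of any of these cell types in the Pf4 difference was not tested. In bulk tissue more cells of a type and more RNA per cell cannot be told apart.

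Ppbp, the other platelet-granule CXC ligand and the next gene to Pf4 on the chromosome, was listed at 0 in 8 of 9 WT and 4 of 9 HIF2 libraries. It was 3.16 FPKM in HIF2 replicate 0 and at most 0.618 FPKM in the other HIF2 libraries. Once the mean of the smooth muscle genes was added to the fit, Pf4 was the 1 gene of the 9 that still passed, at 1.52 (SE 0.33, adjusted p = 0.00599). In that fit 14.1% of all genes were called, 6.83% higher and 7.32% lower. The smooth muscle mean differs between the groups, so it cannot be told apart from the group. Macrophage and platelet levels were not fitted. The genes most like Pf4 in their order over the 18 libraries, after centring within each group, were the Wnt amplifier gene Rspo3 (Spearman rho 0.878), the adhesion molecule gene Vcam1 (0.874) and Kalrn (0.854). Of these Rspo3 rose by 1.11 and Vcam1 by 1.39, and Kalrn fell by 0.35.

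**Figure D3:**
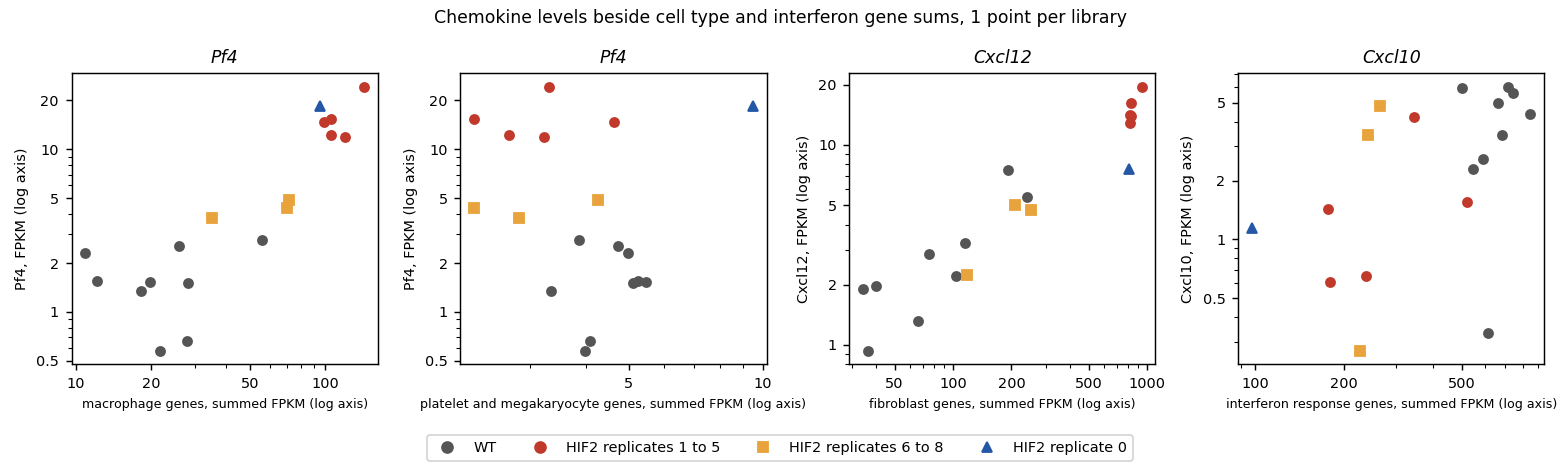
Pf4, Cxcl12 and Cxcl10 (FPKM, log axes) against summed FPKM of fixed gene lists in the same library, 1 point per library. HIF2 replicates 0 to 5 hold the highest Pf4 and the highest macrophage sums. Their platelet sums are 2.25 to 4.64 in replicates 1 to 5 and 9.48 in replicate 0, against 3.34 to 5.45 in WT. The same 6 libraries hold the highest Cxcl12 and fibroblast values, and Cxcl10 spans 0.334 to 6.04 FPKM in WT at interferon response sums of 501 to 851. The points share libraries and groups, so no p is attached.

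The stromal ligand gene Cxcl12 rose in HIF2. It was 0.931 to 7.48 FPKM in WT with a median of 2.21, and 2.24 to 19.6 FPKM in HIF2 with a median of 12.9. HIF2 replicates 0 to 5 were all above the WT maximum, at 7.56 to 19.6 FPKM, whereas replicates 6 to 8, at 2.24 to 4.99 FPKM, lay within the WT range. The log2 difference was 1.47 (SE 0.35, adjusted p = 0.00572; exact permutation p = 0.00234), and it was 1.498 without HIF2 replicate 0 (adjusted p = 0.00799). HIF2 replicate 0, the highest library for Cxcl1 and Cxcl5, was the lowest of those 6 for Cxcl12.

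Fibroblast genes moved with Cxcl12. Of 9 tested, all 9 rose, with a median log2 difference of 2.30, among them the receptor gene Pdgfra by 1.84, the matrix proteoglycan gene Dcn by 2.67 and Lum by 2.13. Their summed FPKM was 806 to 936 in HIF2 replicates 0 to 5, 118 to 253 in replicates 6 to 8 and 34.5 to 242 in WT. The 2 WT libraries with the highest fibroblast sums, replicates 3 and 8, were also the highest WT libraries for Cxcl12, at 5.50 and 7.48 FPKM. Endothelial genes, another stromal source of Cxcl12, rose in 8 of 8 (7 without HIF2 replicate 0) with a median of 1.07, among them Pecam1 by 1.06, Cdh5 by 1.21 and Kdr by 0.97. Smooth muscle genes rose in 9 of 10 (median 3.02), such as Actg2 by 3.93, Myh11 by 3.11 and Cnn1 by 3.54. With smooth muscle level in the fit the Cxcl12 difference was 0.42 (SE 0.27, adjusted p = 0.326), and since that mean differs between the groups, the 2 cannot be told apart. The genes closest to Cxcl12 over the 18 centred libraries were the laminin gene Lama2 (rho 0.951), Svep1 (0.948) and Lum (0.938), and all of these rose, Lama2 by 1.71 and Svep1 by 1.43.

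The receptor of Cxcl12 did not pass the test. Cxcr4 was 0.920 to 2.63 FPKM in WT (median 1.41) and 0.146 to 6.58 FPKM in HIF2 (median 2.35). The highest value was in HIF2 replicate 0 and the lowest in HIF2 replicate 7, and only 2 HIF2 libraries were above the WT maximum. Its log2 difference was 0.35 (SE 0.25, adjusted p = 0.361) and 0.20 (SE 0.22, adjusted p = 0.567) without replicate 0, and -0.10 with the smooth muscle covariate. Closest in pattern were Zfp9 (rho 0.870), Disp2 (0.843) and the metalloproteinase gene Mmp19 (0.841). Ackr3, the atypical receptor that binds Cxcl12 and removes it, rose by 1.07 (SE 0.35, adjusted p = 0.0327), and by 0.79 without HIF2 replicate 0 (adjusted p = 0.0255). It was 0.211 to 1.34 FPKM in WT, 16.4 FPKM in HIF2 replicate 0 and 0.708 to 4.29 FPKM in the other HIF2 libraries. Its call was lost with the replicate number as a block (1.07, adjusted p = 0.0716), with quantile normalization (0.91, adjusted p = 0.062), with smooth muscle level in the fit (0.41, adjusted p = 0.538) and without any 1 of WT replicates 0, 5 and 6 or HIF2 replicates 1, 3 and 5 (1.005 to 1.06, adjusted p up to 0.0606).

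Cxcl14, a ligand found in many epithelia whose receptor is debated, rose and was above the WT median in all 9 HIF2 libraries. Values were 0 to 2.28 FPKM in WT, with a median of 1.25, and 1.37 to 18.9 FPKM in HIF2, with a median of 3.63. HIF2 replicates 2 and 4 lay inside the WT range and the other 7 above it. Unlike Pf4 and Cxcl12, Cxcl14 was not lower in HIF2 replicates 6 to 8, which held 2.96 to 4.06 FPKM. The log2 difference was 1.24 (SE 0.31, adjusted p = 0.00729) and 0.99 without replicate 0 (SE 0.21, adjusted p = 0.00302). The exact permutation p was 0.000288. With the smooth muscle covariate the difference was 1.11 (adjusted p = 0.0808). Its order over the libraries was most like that of Adam8 (rho 0.874), H6pd (0.860) and the semaphorin gene Sema3f (0.860), of which Sema3f rose by 0.78.

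Cxcl13, which organises B cell follicles in gut lymphoid tissue, rose by 0.87 (SE 0.27, adjusted p = 0.0238; exact permutation p = 0.00428). It was 0.268 to 3.20 FPKM in WT (median 1.84) and 1.76 to 11.6 FPKM in HIF2 (median 3.93), with 6 HIF2 libraries above the WT maximum. Without HIF2 replicate 0, the highest, the difference was 0.71 (SE 0.23, adjusted p = 0.0351). The call was lost with quantile normalization (adjusted p = 0.0517) and once smooth muscle level was fitted (0.65, adjusted p = 0.224). Its receptor gene Cxcr5 was too low for the filter, at 0 to 0.509 FPKM in WT and 0.203 to 0.976 FPKM in HIF2. In a fit of all 22774 rows above 0 it was higher by 0.42 (SE 0.10, limma adjusted p = 0.00994), where 10.6% of rows were called higher. It was above the WT maximum in 6 of 9 HIF2 libraries, and HIF2 replicate 0 was the lowest of that group.

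B cell genes showed 0 calls among the 2 of 10 that could be tested, Cd79a at 0.42 and Cd79b at 0.54 (limma adjusted p = 0.236 and 0.303). Ms4a1, which encodes the B cell surface protein CD20, was at most 0.397 FPKM in WT and 0.584 FPKM in HIF2. The sum of the 10 genes was 1.11 to 10.5 FPKM in WT and 1.83 to 17.2 FPKM in HIF2, lowest in replicate 0, where Cxcl13 was highest. Among tested genes BC031781 (rho 0.783), Plxna2 (0.756) and Gprc5a (0.7503) were most like Cxcl13.

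The neutrophil-directed ligands Cxcl1 and Cxcl5 did not pass the test, which they entered only through HIF2 replicate 0. Without that library their means were 0.359 and 0.695 FPKM, under the filter, so their adjusted p say little. Cxcl1 was listed at 0 in 5 of 9 WT and 2 of 9 HIF2 libraries. Its WT maximum was 0.796 FPKM, HIF2 replicate 0 held 37.6 FPKM, and the next HIF2 library, replicate 2, held 1.82 FPKM. The log2 difference was 0.82 (SE 0.52, adjusted p = 0.299; exact permutation p = 0.0818), and 0.29 (SE 0.20, adjusted p = 0.334) without replicate 0. Cxcl5 was 0.206 to 1.23 FPKM in WT (median 0.547), 81.4 FPKM in HIF2 replicate 0 and 0 to 3.21 FPKM in the other HIF2 libraries (median 0.373). More HIF2 libraries lay below the WT median of Cxcl5 (5) than above it (4). Its log2 difference was 0.75 (SE 0.63, adjusted p = 0.444; exact permutation p = 0.326), and 0.12 (SE 0.25, adjusted p = 0.773) without replicate 0.

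Cxcl2 and Cxcl3, of the same class, were high in the same library. Cxcl2 was 45.4 FPKM in HIF2 replicate 0, listed at 0 in the 8 other HIF2 libraries and at most 0.288 FPKM in WT. Cxcl3 was 19.8 FPKM in that library and listed at 0 in the other 17. Both met the filter only through HIF2 replicate 0, with means of 0.033 and 0 FPKM without it, so their limma adjusted p of 0.568 and 0.508 say little. Unlike these, Cxcl15 and Cxcl17 were listed at 0 in HIF2 replicate 0. Cxcl15 was at most 0.308 FPKM in WT and 0.50 FPKM in HIF2, and Cxcl17, a mucosal chemokine, at most 0.528 and 0.526 FPKM. The receptor gene Cxcr2 was 3.25 FPKM in HIF2 replicate 0, 0.305 to 1.36 FPKM in WT and 0.249 to 1.10 FPKM in the other HIF2 libraries. Cxcr1 was listed at 0 in every library. Ackr1, an atypical receptor of venules that carries these ligands across endothelium, was 9.92 FPKM in HIF2 replicate 0 and at most 2.27 FPKM in the others, against 0 to 0.772 FPKM in WT (log2 difference 0.85, SE 0.35, limma adjusted p = 0.0891; exact permutation p = 0.0188). Ackr1 also met the filter only through that library, without which its mean was 0.644 FPKM and its difference 0.57 (limma adjusted p = 0.10).

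Neutrophil genes were high in the same library. The calprotectin genes S100a8 and S100a9 were 421 and 333 FPKM in HIF2 replicate 0, and their WT maxima were 1.59 and 0.890 FPKM. The sum of the 10 listed neutrophil genes with a row was 851.5 FPKM there, 1.02 to 9.50 FPKM in the other HIF2 libraries and 0 to 2.67 FPKM in WT. Only 4 of the 10 met the filter, all 4 through HIF2 replicate 0, so no test bears on them in the other libraries. In HIF2 replicate 0, Retnlg was 54.76 FPKM, Il1r2 15.55, Ngp 12.01, Mmp8 11.08, Csf3r 2.295 and Camp 1.684 FPKM. The granule genes Mpo and Elane were listed at 0 in every library.

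These genes are neighbours. In the GENCODE M21 annotation of GRCm38 (mm10), 6 of the 10 genes lie on chromosome 5. Cxcl5 (90759360 to 90761624), Pf4 (90772435 to 90773383) and Cxcl1 (90891241 to 90893115) stand in 1 run of plus-strand CXC genes with Ppbp, Cxcl3, Cxcl15 and Cxcl2. Cxcl9 (92321347 to 92328079) and Cxcl10 (92346638 to 92348889), on the minus strand, lie with Cxcl11 about 1437 to 1474 kb from the start of Cxcl1. Cxcl13 spans 95956951 to 95961068. Along the first run, Pf4 was above the WT maximum in all 9 HIF2 libraries, while Cxcl3, separated from Pf4 by 12719 bases, was above 0 in only 1 of them. Cxcl12 is on chromosome 6 (117168535 to 117181367), Cxcl14 on chromosome 13 (56288643 to 56296551), Cxcl16 on chromosome 11 (70453983 to 70459984) and Cxcr4 on chromosome 1 (128588199 to 128592293).

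**Figure D4:**
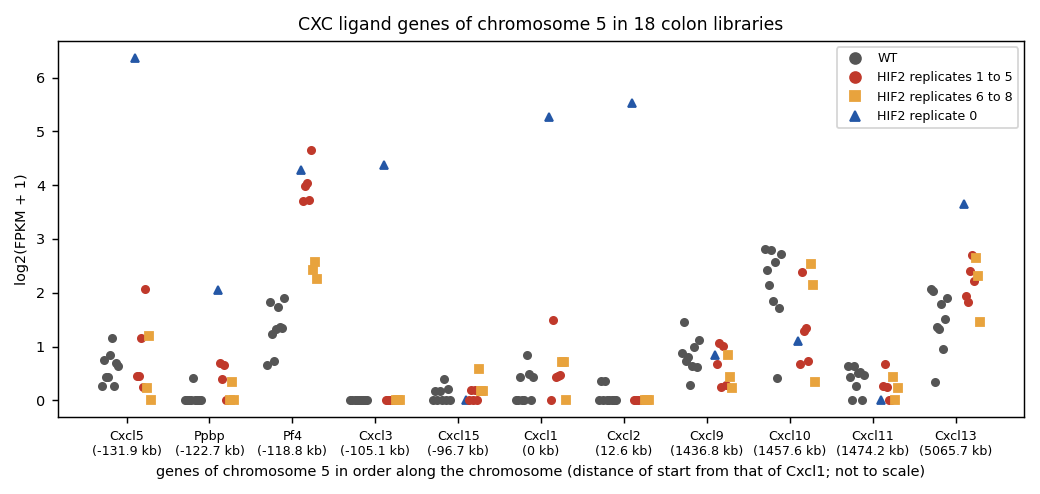
Expression as log2(FPKM + 1) of the CXC ligand genes of chromosome 5, in their order along the chromosome with equal spacing, 1 point per library. HIF2 replicate 0 (triangles) is high for Cxcl5, Cxcl3, Cxcl1 and Cxcl2, Pf4 is high in all HIF2 libraries, and the Cxcl9, Cxcl10 and Cxcl11 points of both groups overlap.

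Of the interferon-induced ligands only Cxcl10 met the filter, and it did not pass the test. Cxcl9 and Cxcl11 were under the filter, and by median none of these ligands was higher in HIF2. Cxcl10 was 0.334 to 6.04 FPKM in WT (median 4.38) and 0.268 to 4.83 FPKM in HIF2 (median 1.43), with 8 of 9 HIF2 libraries below the WT median. Its log2 difference was -0.77 (SE 0.35, adjusted p = 0.124; exact permutation p = 0.0549), and -0.73 without HIF2 replicate 0 (adjusted p = 0.168). It passed without WT replicate 6, which held the WT minimum (-0.99, adjusted p = 0.0249), and with array weights (-0.87, adjusted p = 0.0407). Cxcl9 was 0.214 to 1.73 FPKM in WT (median 0.749) and 0.178 to 1.10 FPKM in HIF2 (median 0.601), a log2 difference of -0.21 (exact permutation p = 0.202), and -0.23 without HIF2 replicate 0. Its adjusted p was 0.405 in the fit without a filter. Cxcl11 was at most 0.557 FPKM in WT and 0.588 FPKM in HIF2, and their shared receptor gene Cxcr3 at most 0.565 and 1.01 FPKM.

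Other genes of the interferon response were lower. Of 15 tested, 11 fell and 0 rose, with a median log2 difference of -1.41, and the transcription factor genes Irf1 and Irf7 fell by 0.85 and 2.12. Their summed FPKM was 501 to 851 in WT and 98.0 to 521 in HIF2. HIF2 replicates 6 and 7 held 4.83 and 3.42 FPKM of Cxcl10 at sums of 265 and 241 FPKM, below every WT library, whereas replicates 5 and 8 held 0.650 and 0.268 FPKM at sums of 237 and 227 FPKM. T and NK cell genes, the cells these ligands draw, had 0 calls among 2 of 10 tested (limma adjusted p = 0.409 for Cd3g and 0.0817 for Gzmb). Cd3e was 0.234 to 1.59 FPKM in WT and 0 to 2.42 FPKM in HIF2, and Cd3d at most 1.84 and 1.68 FPKM. Most like Cxcl10 in order were Rab38 (rho 0.769), Tmem104 (0.7503) and Cyp2w1 (0.733).

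Cxcl16, a membrane-bound ligand and scavenger receptor for which Cxcr6 is the receptor, did not pass the test. It was 3.67 to 8.37 FPKM in WT (median 6.13) and 3.86 to 9.55 FPKM in HIF2 (median 6.75), and only HIF2 replicate 0 was above the WT maximum. The log2 difference was 0.20 (SE 0.15, adjusted p = 0.415; exact permutation p = 0.238) and 0.13 without that library. Cxcr6 differed by 0.24 (SE 0.16, adjusted p = 0.336), from 1.03 to 3.68 FPKM in WT and from 1.67 to 3.90 FPKM in HIF2. Adam10 and Adam17, the proteases that shed Cxcl16, differed by 0.09 and 0.04, and Dpp4, which trims several CXC ligands, by 0.17 (limma adjusted p = 0.665, 0.775 and 0.523). Of the 16 other ligand, receptor and protease genes, 8 were tested, Cxcl2, Cxcl3 and Ackr1 only through HIF2 replicate 0. Of these 8, 1 rose, Ackr3, and 0 fell, against 11.0% of all genes called higher and 11.1% lower. The closest genes to Cxcl16 were Zmynd15 (rho 0.814), Mettl9 (0.800) and Eif4e (0.783).

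The order of the levels differed between the groups. By median FPKM, which is scaled by transcript length, the order in WT was Cxcl16, Cxcl10, Cxcl12, Cxcl13, Pf4, Cxcr4, Cxcl14, Cxcl9, Cxcl5 and Cxcl1. In HIF2 it was Cxcl12, Pf4, Cxcl16, Cxcl13, Cxcl14, Cxcr4, Cxcl10, Cxcl9, Cxcl1 and Cxcl5. Each gene overlapped the next one in range in both orders, as Cxcl12 at 10.7 ± 5.97 FPKM and Pf4 at 12.2 ± 6.95 FPKM did in HIF2 (SD, n = 9). Differences between neighbours within the same libraries were not tested. Among pairs without Cxcl1 and Cxcl5, with values centred within each group, the highest Spearman rho over the 18 libraries were 0.585 for Cxcl12 with Cxcr4, 0.550 for Pf4 with Cxcr4 and 0.532 for Cxcl12 with Pf4. Cxcl9 with Cxcl10 gave 0.422. These are descriptions over libraries that share tissue makeup.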

How the data were processed

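Per the labels, polyadenylated RNA from mouse colon was sequenced from TruSeq RNA kit v2 libraries. Cufflinks and Cuffdiff 2.1.1, TopHat2 2.0.9, Bowtie2 2.1.0.0, FastQC and the build mm10 appear in the submitters' processing notes, with no order given. The deposited values are FPKM, 1 column per library, all 18 used; read counts and depth are not given, so no counting interval could be set, and FPKM does not keep reads of similar paralogs apart. The 10 genes and all gene lists were chosen with earlier results of these data known.

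Values were taken as log2(FPKM + 1). Genes with a mean of at least 1 FPKM (13976) were tested with limma 3.58.1 in R 4.3.3 (trended prior, 2-sided, Benjamini-Hochberg over all genes tested, threshold 0.05). Single values were tested by exact 2-sided permutation of the group means in Python 3.11.15 with numpy 2.4.6. The fit was also run on simulated data with independent normal noise and a known shift. Those data held no far library and no division within a group, so they do not show how the fit handles such libraries. For low genes the pseudocount makes differences smaller than the true fold.

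The genes named were the 10 genes, every gene of 3 lists of other CXC ligands, receptors and processing enzymes, the first 3 genes of each other list, and the 3 genes with the highest Spearman rho to each tested gene among 11561. Some genes under this rule are not reported here, and no rho is given for Cxcl1 and Cxcl5, whose HIF2 mean rests on replicate 0, so that centring itself orders the groups. Other genes named were chosen after their values were seen. Of 122 list entries 121 had a row; Ly6g had none. Alternatives were a pseudocount of 0.1, a mean filter of 5 FPKM or none, TPM, upper quartile and quantile scaling, array weights, a robust prior, a block for the replicate number, a smooth muscle or Ddx3y covariate, and leaving out each library.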

Additional observations from a re-analysis of the deposited data

Results flagged for a closer look

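Of 49 gene and group combinations examined, 18 held a library far from the other 8. The measure is the gap to the nearest library as a share of the group's range, with a critical value of 0.493 for 9 libraries. That value gives about 1 in 20 groups by chance for normally distributed values, which FPKM with many zeros are not: a gap of 1.0 means a single library above 0. The combinations are also not independent, since 12 of the 18 share 1 library.

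HIF2 replicate 0 was the shared library. Among the neutrophil-directed ligands the gap was 0.952 for Cxcl1 (37.6 FPKM, next 1.82), 0.961 for Cxcl5 (81.4, next 3.21) and 1.0 for both Cxcl2 (45.4) and Cxcl3 (19.8), which were listed at 0 in the other HIF2 libraries. It was 0.804 for Ppbp (3.16 FPKM, next 0.618) and 0.716 for the receptor gene Cxcr2 (3.25, next 1.1). Of the genes that rose, Cxcl14 had a gap of 0.843 (18.9 FPKM, next 4.13), Cxcl13 of 0.62 (11.6, next 5.5) and Ackr3 of 0.772 (16.4, next 4.29). The remaining gaps in that library were 0.771 for Ackr1 (9.92 FPKM, next 2.27), 0.5 for Cxcr4 (6.58, next 3.36) and 0.5 for Adam10 (45.0, next 32.5). Pf4, Cxcl12 and Cxcl16 had no such gap in it. What sets this library apart was not tested.

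The other 6 were all under 1 FPKM. They were Cxcl1 in WT replicate 5 (0.496, at 0.796 FPKM), Ppbp in WT replicate 4 (1.0, at 0.33 FPKM), Cxcl15 in WT replicate 5 (0.504, at 0.308 FPKM) and HIF2 replicate 6 (0.712, at 0.5 FPKM), Cxcl17 in WT replicate 7 (1.0, at 0.528 FPKM) and Ackr1 in WT replicate 1 (0.598, at 0.772 FPKM).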

How the results depend on the processing

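Pf4 kept its direction and its call under all 30 alternatives, at 2.03 to 2.33 when 1 library was left out (limma adjusted p up to 0.000408). With the smooth muscle covariate 1977 genes were called (954 higher, 1023 lower, against 3088), 1 of the 9 tested genes and 0 companion genes: Cxcl12 was 0.42 (adjusted p = 0.326), Cxcl13 0.65 (0.224), Cxcl14 1.11 (0.0808), and Cxcr4 and Adam10 reversed to -0.10 and -0.11. A mean filter of 5 FPKM left 9287 genes, of which 1896 were called (640 higher, 1256 lower), with 2 of 4 tested genes of the 10 and 0 companion genes. Upper quartile scaling gave 1781 higher and 1245 lower. Quantile normalization took Cxcl13 to 0.74 (adjusted p = 0.0517). Array weights took Cxcl10 to -0.87 (adjusted p = 0.0407). Companion genes called, 1 in the report, were 2 without a filter, 2 with array weights and 0 with quantile normalization. When each library was left out in turn, calls ranged from 2679 to 3296 genes, 4 to 5 of the 10 genes and 0 to 2 companion genes. The differences then ranged from 1.34 to 1.67 for Cxcl12, 0.71 to 0.98 for Cxcl13, 0.99 to 1.37 for Cxcl14, -0.99 to -0.64 for Cxcl10, 0.29 to 0.95 for Cxcl1, 0.12 to 0.92 for Cxcl5, 0.20 to 0.54 for Cxcr4, 0.13 to 0.27 for Cxcl16 and -0.28 to -0.13 for Cxcl9. Cxcl2 ranged from -0.080, a reversal without HIF2 replicate 0, to 0.61. The cause of these changes was not tested, beyond the fewer genes and libraries that the settings leave.

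Same-numbered libraries correlated at -0.033 to 0.112 and 1 of 18 was closest to its own number. No pairing by number was seen, though differences among the HIF2 libraries could hide one. With the replicate number as a block, 2700 genes were called (1355 higher, 1345 lower), with 4 of the 10 genes and 0 companion genes. Depth is unknown, which limits what can be said of genes under 1 FPKM.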
